A study of Mus musculus with 12 samples.

Results

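The livers of fasted mice lacking the glucose transporter Glut2 were compared with the livers of fasted control mice. The comparison uses 6 of the 12 arrays in the series, chosen by title and diet label: 3 of mice labelled LG2KO and treated with tamoxifen, and 3 of control mice with no tamoxifen label. All mice were of the SV129XC57Bl/6 strain, and each array carried liver RNA pooled from 3 animals, so that n = 3 pools a group below. LG2KO is not spelled out in the labels and is read here as a knockout of Slc2a2, the gene that encodes Glut2. The sources used here do not give the promoter that drives recombination, the time since tamoxifen, the length of the fast, or the age and sex of the animals. Genotype and tamoxifen label cannot be told apart. The series asks how glucose sensing by the liver preserves the response of beta cells to glucose, and these arrays give the liver transcripts in the fasted state. The other 6 arrays, 3 control and 3 LG2KO, came from livers of mice fasted and then refed, and are used for comparison.

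Glut2 is the main transporter of glucose across the hepatocyte membrane, and it works in either direction, so that glucose enters after a meal and can leave during a fast. Inside the hepatocyte glucose is phosphorylated, and the phosphorylated sugars activate ChREBP, encoded by Mlxipl, a transcription factor that switches on pyruvate kinase, fructose metabolism and fatty acid synthesis. Insulin drives overlapping lipogenic genes through SREBP-1c, encoded by Srebf1. In a fasted liver these genes are normally low, while glycogen breakdown, gluconeogenesis and fatty acid oxidation are active.

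Values are log2 expression levels normalised by RMA, which brings the arrays to a common scale. A difference is LG2KO minus control on this log2 scale, given with its standard error, and levels of different genes are not comparable with each other. Genes were called changed when limma's moderated test, adjusted by the Benjamini-Hochberg method over 18194 genes, gave an adjusted p below 0.05. Of these genes 72 passed, or 0.396%, with 56 higher (0.308%) and 16 lower (0.0879%) in LG2KO. The median difference over all genes was -0.0043. RNA of the whole tissue was measured, so fewer cells of a type and less RNA per cell cannot be told apart.

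Some arrays stood apart from the rest. Over the 18194 genes the correlation between control fasted arrays was 0.994 to 0.995, and that between LG2KO fasted replicates 1 and 2 was 0.996. LG2KO fasted replicate 3 correlated with those LG2KO arrays at 0.983 and 0.988 and with control fasted replicates 1, 2 and 3 at 0.993, 0.989 and 0.987. Control fasted replicate 3 had high levels of exocrine pancreas and skeletal muscle transcripts: the mean level of 12 pancreas markers was 7.60 there and 5.05 to 5.32 on the other 5 fasted arrays, and that of 16 muscle markers was 6.17 against 4.91 to 5.25. The mean of 11 hepatocyte markers lay between 12.97 and 13.12 on all 6. The 3' probe set of Actb exceeded its 5' probe set, a sign of RNA quality, by 0.68 to 0.76 in controls and by 0.76 to 0.82 in LG2KO. No member of these marker lists passed. In addition, the LG2KO fasted arrays are described as fasted and refed in their source label, whereas title and diet label say fasted.

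**Figure D1:**
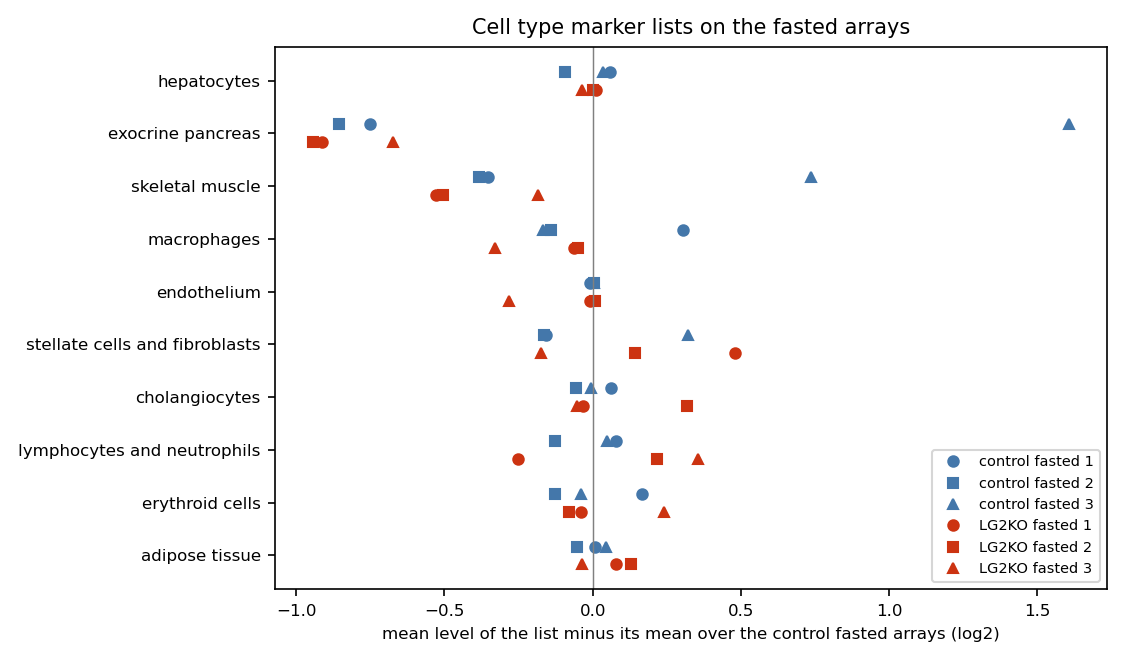
Mean log2 level of each marker list on each of the 6 fasted arrays, less the mean of that list over the 3 control fasted arrays. Points are arrays. Control fasted replicate 3 stands above the other arrays in the exocrine pancreas and skeletal muscle lists, and the hepatocyte list is nearly level.

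Transcripts known to be induced by fasting were therefore read in both feeding states. Cpt1a, the gate of mitochondrial fatty acid oxidation, stood at 11.71, 11.81 and 11.60 on LG2KO fasted replicates 1 to 3 and at 11.71 to 11.97 on the control fasted arrays. On the 6 refed arrays it did not exceed 10.81. Angptl4, a fasting-induced inhibitor of lipoprotein lipase, was between 11.44 and 11.45 on the LG2KO fasted arrays, from 11.14 to 11.53 in fasted controls and at most 10.46 after refeeding. On both genes the LG2KO fasted arrays lay with the fasted controls and apart from every refed array, as their titles and diet labels place them. Pck1 also lay apart, at 12.86 to 13.04 on the LG2KO fasted arrays and at most 12.64 after refeeding. Igfbp1, Fgf21 and Irs2 did not separate the feeding states. Fgf21, for example, was at 6.78 to 7.08 on the LG2KO fasted arrays and at 5.66 to 7.09 after refeeding. On these genes the fasted controls overlapped the refed arrays as well.

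Slc2a2 itself was lost. Its level was 10.002, 11.08 and 10.82 on control fasted replicates 1, 2 and 3 and 4.02, 4.13 and 3.56 on LG2KO fasted replicates 1, 2 and 3. The groups did not overlap, and the difference was -6.73 ± 0.25 (adjusted p = 5.21e-08), or -6.56 without LG2KO fasted replicate 3. The LG2KO values lay low on the scale of the array, so how far it fell is uncertain, and the sources used here do not say whether its 1 probe set lies in the deleted part. Around Slc2a2 on chromosome 3, none of the 5 nearest tested genes on each side passed, and none of these 10 had an unadjusted p below 0.05. Their differences ran from -0.43 for Rpl22l1, a paralogue of a ribosomal protein gene, to 0.17 for Eif5a2, a translation factor gene.

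No other hexose transporter passed, out of 13 measured members of that list with a median of -0.04. The widely expressed transporter Slc2a1, which encodes Glut1, was at 8.83, 8.70 and 8.61 in fasted controls and at 8.16, 8.15 and 8.13 in fasted LG2KO livers. These groups did not overlap, as in 10.8% of all genes, and the difference of -0.57 ± 0.11 missed the threshold (adjusted p = 0.0705). In refed livers the same transcript differed the other way, by 0.39 ± 0.11, and the test of the change between feeding states gave an adjusted p of 0.174.

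Genes of hexose metabolism that ChREBP is known to drive were among those that rose. Liver pyruvate kinase, Pklr, the last step of glycolysis, was at 8.82, 8.73 and 9.02 in fasted controls and at 10.71, 10.70 and 10.91 in fasted LG2KO livers. Every LG2KO array exceeded every control array by more than the spread within either group, and the difference was 1.92 ± 0.12 (3.78-fold, adjusted p = 7.41e-06). In refed livers Pklr stood at 9.78 ± 0.19 (SD, n = 3) in controls and 9.95 ± 0.11 in LG2KO. The fasted LG2KO arrays thus lay above all 6 refed arrays, as they also did for Khk, Tkfc, G6pc and Pygl below, and these comparisons were not tested. Its genotype difference changed with feeding by 1.75 ± 0.16 (interaction, adjusted p = 0.0024), and Pklr was the 1 gene of 18194 (0.0055%) to pass that test.

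In the fructose pathway 2 of the kinases rose. Ketohexokinase, Khk, which phosphorylates fructose, was at 12.05, 11.91 and 11.81 in controls and at 12.85, 12.88 and 13.05 in LG2KO, a rise of 1.001 ± 0.08 (adjusted p = 0.000152). Triokinase, Tkfc, which phosphorylates the glyceraldehyde split from fructose, was at 9.09, 8.80 and 9.16 in controls and at 10.39, 10.55 and 10.88 in LG2KO, a rise of 1.59 ± 0.13 (3.01-fold, adjusted p = 0.000152). The fructose and polyol list had 5 measured members, and these were the 2 that passed, beside 0.396% of all genes. A further kinase of the list, glycerate kinase, Glyctk, was at -0.13 ± 0.11 and did not pass. The median of the list was 0.33.

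In the list of 18 measured genes linked to ChREBP there were 9 rises and 1 fall, that of Slc2a2, and the median was 0.60 beside -0.0043 over all genes and 0.396% of all genes passing. Without LG2KO fasted replicate 3 the counts were 6 and 1, and without both that array and control fasted replicate 3 they were 5 and 1. Most of these rises were of genes that also stand in other lists described here, so the lists are not separate evidence. The lists were also chosen with earlier results of these data known, so their counts are a description and not a test. All lists together hold 27 of the 72 genes that passed. Mlxipl was at 0.28 ± 0.13 (adjusted p = 0.984). Txnip, which restrains glucose uptake and is a common readout of ChREBP, was at 10.11, 10.39 and 9.99 in controls and at 10.78, 10.53 and 10.59 in LG2KO. Its groups did not overlap, as in 10.8% of all genes, and its difference of 0.47 ± 0.13 missed the threshold (adjusted p = 0.293).

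Promoters of the genes that passed were searched because ChREBP binds a pair of E-boxes held 5 bases apart. The motif used was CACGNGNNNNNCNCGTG, which is its own reverse complement, in RefSeq promoters of assembly GRCm38.p6 that run from 250 bases before to 50 after each start. It was found in 0.0457% of the 32851 promoters in the table, in 1 of 56 promoters of genes that rose and in 0 of 14 promoters of genes that fell. The 1 match lies in the promoter of a start of Pklr at chr3:89136373-89136672 on the plus strand, from 170 bases before the start. A single E-box, CACGTG, was in 7.15% of all promoters, in 12.5% of those of risen genes, Khk among them, and in 14.3% of those of fallen genes. Khk has its E-box 71 bases before the start, in chr5:30921309-30921608 on the plus strand. These promoters, with the match in capitals, are shown for the pyruvate kinase and fructokinase genes whose levels open the account above.
Pklr: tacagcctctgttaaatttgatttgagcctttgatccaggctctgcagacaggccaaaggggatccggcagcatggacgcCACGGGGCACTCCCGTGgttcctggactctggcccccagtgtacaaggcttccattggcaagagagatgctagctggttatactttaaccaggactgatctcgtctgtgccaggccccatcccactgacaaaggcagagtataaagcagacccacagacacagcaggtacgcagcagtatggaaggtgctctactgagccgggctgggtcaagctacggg
Khk: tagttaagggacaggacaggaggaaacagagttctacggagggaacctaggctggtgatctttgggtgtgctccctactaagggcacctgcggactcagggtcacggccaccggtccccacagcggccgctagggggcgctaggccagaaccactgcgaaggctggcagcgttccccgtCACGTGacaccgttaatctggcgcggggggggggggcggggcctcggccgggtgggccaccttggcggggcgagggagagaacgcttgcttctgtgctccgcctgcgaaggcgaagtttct
A match describes letters in a window and was not measured as a binding site here. Promoters of 60 of the 72 genes were matched by symbol.

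Of 19 measured fatty acid synthesis genes 7 rose and 0 fell in fasted LG2KO livers, beside 0.308% and 0.0879% of all genes. The median of the list was 0.26, and that of all genes -0.0043. The 7 were Acly, Acaca, Fasn, Elovl6, Thrsp, Mid1ip1 and Me1. Citrate lyase, Acly, which makes cytosolic acetyl-CoA, was at 9.56, 9.62 and 9.93 in controls and at 10.63, 11.06 and 10.82 in LG2KO (1.14 ± 0.13, adjusted p = 0.00237). Acetyl-CoA carboxylase, Acaca, which makes malonyl-CoA, was at 8.71, 8.78 and 8.97 against 9.78, 10.01 and 9.80 (1.04 ± 0.11, adjusted p = 0.00142). Fatty acid synthase, Fasn, was at 9.05, 9.09 and 8.80 against 10.09, 10.32 and 10.33 (1.27 ± 0.16, adjusted p = 0.00287). In all 3 the lowest LG2KO array lay clearly above the highest control array.

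The elongase Elovl6, which lengthens palmitate, and Thrsp, a small protein that promotes lipogenesis, rose the most within the list. Elovl6 was at 5.91, 6.41 and 6.79 in controls and at 8.74, 8.40 and 7.91 in LG2KO (1.98 ± 0.27, 3.94-fold, adjusted p = 0.00555), with LG2KO fasted replicate 3 the lowest of its group. Thrsp was at 11.72, 10.91 and 12.11 in controls and at 13.43, 13.43 and 13.40 in LG2KO (1.84 ± 0.22, 3.58-fold, adjusted p = 0.00237), so that its spread was almost all in the controls. Mid1ip1, which activates acetyl-CoA carboxylase, rose by 1.08 ± 0.10 (adjusted p = 0.000369), from 8.88 to 9.11 in controls to 9.96 to 10.13 in LG2KO. Malic enzyme, Me1, a source of the NADPH that synthesis consumes, was at 9.79 to 9.99 against 10.99 to 11.25 and rose by 1.22 ± 0.12 (adjusted p = 0.000652).

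**Figure D2:**
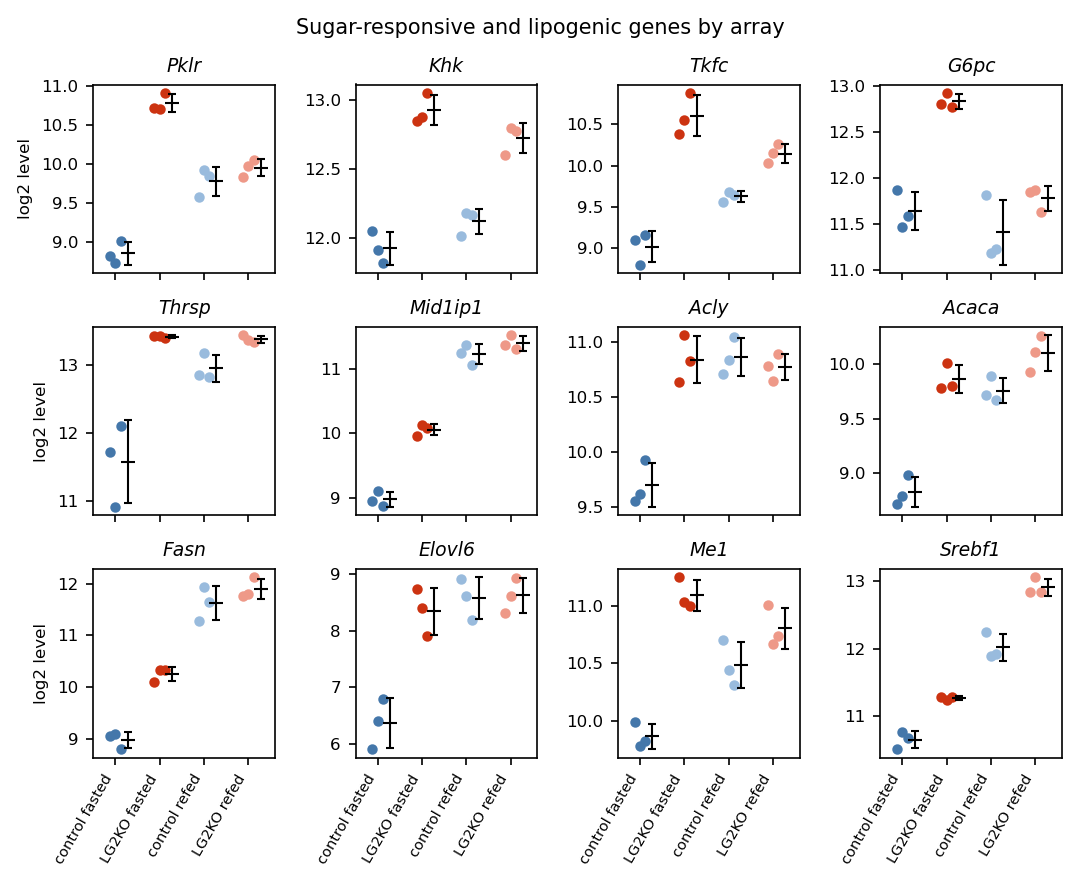
Log2 expression level of genes of hexose and fatty acid metabolism in the 4 groups of 3 arrays, each panel with its own axis. Points are arrays and the bar with its error is the mean ± SD. Fasted LG2KO arrays lie above fasted controls for every gene plotted, and for Pklr, Khk, Tkfc and G6pc they also exceed all 6 refed arrays.

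The number of fatty acid synthesis genes that rose was also 7 without LG2KO fasted replicate 3, 7 without control fasted replicate 3 and 6 without both, when Fasn missed (1.14, adjusted p = 0.0667). The desaturase Scd1 was at 0.35 ± 0.16 and did not pass (adjusted p = 0.939), though its groups did not overlap, as in 10.8% of all genes. No gene of triglyceride storage or lipid droplets passed out of 19, and none of 15 lipoprotein genes.

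Set beside the refed livers, the fasted LG2KO means of the 7 synthesis genes differed from gene to gene. Fasn had a mean of 8.98 in fasted controls, 10.25 in fasted LG2KO, 11.62 in refed control and 11.89 in refed LG2KO livers. Mid1ip1 had means of 8.98, 10.06, 11.22 and 11.39 in the same order. For Fasn and Mid1ip1 every fasted LG2KO array lay below every refed array. Elovl6 had a mean of 8.35 in fasted LG2KO livers and of 8.58 and 8.63 in refed control and LG2KO livers. Its arrays overlap, at 7.91 to 8.74 in fasted LG2KO and 8.19 to 8.94 after refeeding. Acly, at 10.84, lay between the refed means of 10.77 in LG2KO and 10.86 in controls, and Acaca, at 9.86, between 9.76 in controls and 10.10 in LG2KO. Me1 stood above both, at 11.09 against 10.49 and 10.80, as did Thrsp at 13.42 against 12.95 and 13.38, and for each of this pair the arrays overlap. None of these comparisons across feeding states was tested. The refed genotype differences of the 7 genes did not pass, but neither did the tests that they differ from the fasted ones.

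Srebf1, the lipogenic regulator downstream of insulin, was at 10.51, 10.75 and 10.67 in fasted controls and at 11.28, 11.23 and 11.28 in fasted LG2KO livers. Its groups did not overlap, and it rose by 0.62 ± 0.10 (adjusted p = 0.0184), but it missed the threshold without LG2KO fasted replicate 3 (0.62, adjusted p = 0.0756) and without 4 of the other 5 fasted arrays taken 1 at a time. It was the 1 gene of 13 lipogenic regulators to pass, and the median of that list was -0.06. Of 15 genes of insulin signalling and its fasting targets none passed.

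An enzyme that feeds ketone bodies into lipid synthesis rose as well. Acetoacetyl-CoA synthetase, Aacs, which activates acetoacetate in the cytosol for lipid synthesis, was at 7.23, 7.55 and 7.43 in fasted controls and at 8.56, 8.79 and 8.56 in fasted LG2KO livers. It rose by 1.23 ± 0.15 (2.35-fold, adjusted p = 0.00287). In refed livers its mean was 9.81 in controls and 9.44 in LG2KO, a difference of -0.36 ± 0.15. The interaction was 1.59 ± 0.21 and missed the threshold (adjusted p = 0.0646).

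None of 17 measured cholesterol synthesis enzymes passed. All 17 differences were negative, beside 9351 of 18194 over all genes. They ran from -1.42 to -0.09, with a median of -0.47, and were not tested as a set. Squalene epoxidase, Sqle, stood at 7.24, 8.56 and 7.22 in controls and at 6.38, 6.62 and 5.75 in LG2KO (-1.42 ± 0.38, adjusted p = 0.249). Its groups did not overlap, as in 10.8% of all genes, and control fasted replicate 2 lay far above the other controls. None of 17 genes of fatty acid oxidation passed, with a median of -0.14 and a range from -0.22 to 0.09.

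**Figure D3:**
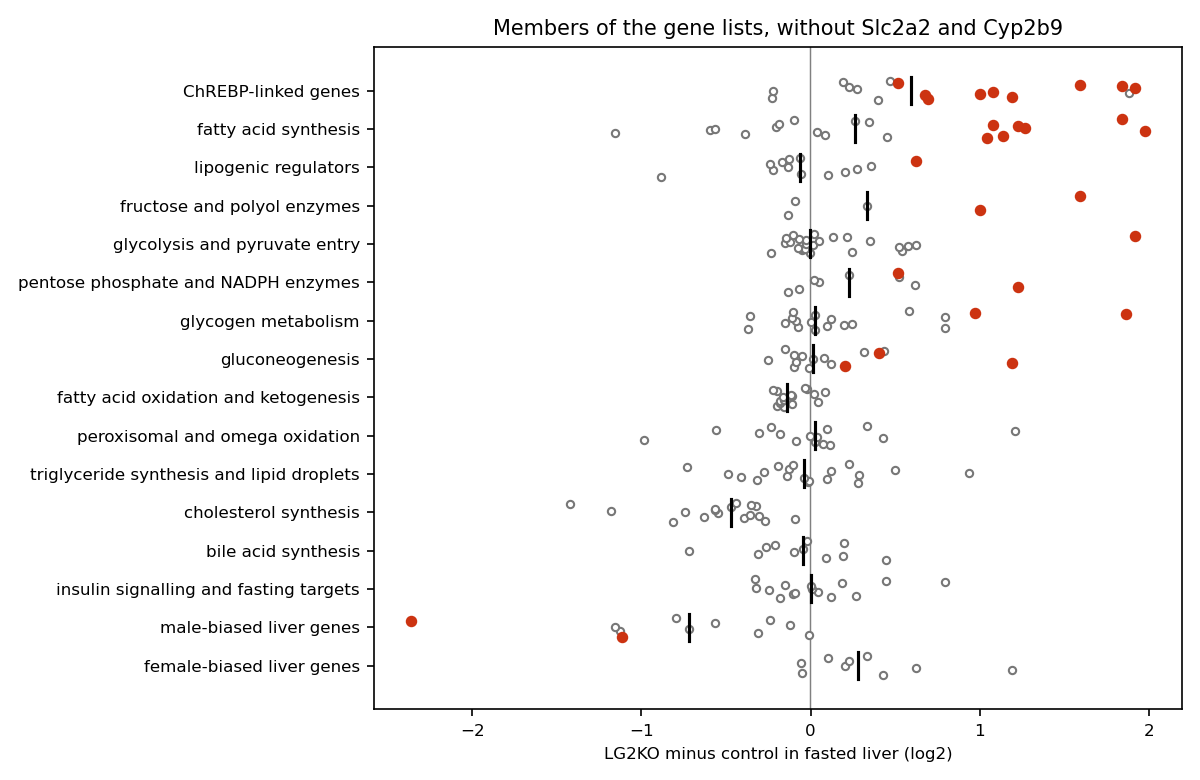
Log2 difference of LG2KO minus control in fasted liver for each measured member of the gene lists, 1 row of points a list. Red points passed at an adjusted p below 0.05, open points did not, the black bar is the median of the list and the grey line the median of all genes. Slc2a2 and Cyp2b9 lie beyond the axis and are not drawn. A gene in more than 1 list is drawn in each of its rows. Red points are most frequent in the rows of the ChREBP-linked and fatty acid synthesis lists.

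Glucose release and glycogen held further rises. The catalytic subunit of glucose-6-phosphatase, G6pc, which frees glucose from its phosphate, was at 11.87, 11.47 and 11.59 in controls and at 12.80, 12.92 and 12.77 in LG2KO, and rose by 1.19 ± 0.15 (2.28-fold, adjusted p = 0.00342). Its partner, the glucose-6-phosphate transporter Slc37a4, was at 0.43 ± 0.10 (adjusted p = 0.116). Pyruvate carboxylase, Pcx, and fructose-1,6-bisphosphatase, Fbp1, rose by 0.40 ± 0.07 (adjusted p = 0.025) and 0.20 ± 0.04 (adjusted p = 0.0313). Pck1, the cytosolic enzyme that commits oxaloacetate to gluconeogenesis, was at 12.92 to 13.14 in controls and at 12.86 to 13.04 in LG2KO, and these ranges overlap.

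Of 15 measured gluconeogenesis genes the 3 named above rose, beside 0.308% of all genes, with a median of 0.02. Without LG2KO fasted replicate 3, 1 of them passed, and without both that array and control fasted replicate 3 none did. G6pc was at 1.22 without the first (adjusted p = 0.0129) and at 1.20 without both (adjusted p = 0.0646). Of 25 glycolysis genes Pklr was the 1 that passed, and the median of that list was -0.0043.

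Genes on opposite arms of glycogen metabolism rose side by side. Ppp1r3g, a phosphatase subunit that promotes glycogen synthesis, was at 4.89, 5.69 and 5.92 in controls and at 7.32, 7.18 and 7.57 in LG2KO (1.86 ± 0.22, adjusted p = 0.00237). Pygl, liver glycogen phosphorylase, which breaks glycogen down, was at 11.42, 11.21 and 11.28 in controls and at 12.28, 12.35 and 12.20 in LG2KO (0.97 ± 0.12, adjusted p = 0.00258). Neither pair of groups overlapped. These were the 2 of 19 glycogen genes that passed, beside 0.396% of all genes, and the median of the list was 0.03. Both also passed without LG2KO fasted replicate 3, without control fasted replicate 3 and without both arrays.

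In the pentose phosphate and NADPH list of 9 genes 2 rose, Me1 and transketolase, Tkt, beside 0.308% of all genes. The median of the list was 0.23. Tkt rose by 0.52 ± 0.09 (adjusted p = 0.024), and glycerol-3-phosphate dehydrogenase, Gpd1, which links glycolysis to triglyceride, rose by 0.67 ± 0.12 (adjusted p = 0.0291). Each of the latter pair missed the threshold when any 1 of the 6 fasted arrays was left out. Gckr, the regulator of glucokinase, was at 10.49, 10.50 and 10.83 in controls and at 11.13, 11.26 and 11.05 in LG2KO. Its groups did not overlap, as in 10.8% of all genes, and its difference of 0.54 ± 0.11 missed the threshold (adjusted p = 0.0807).

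The largest rise of all belonged to Cyp2b9, a cytochrome P450 that is normally high in female mouse liver and low in male liver. It was at 4.47, 4.49 and 4.72 in fasted controls and at 11.45, 10.69 and 9.20 in fasted LG2KO livers. Controls were low on every array, and LG2KO fasted replicate 3 was the lowest of its group but still far above them. The rise was 5.89 ± 0.63 (adjusted p = 0.00129), or 6.51 without LG2KO fasted replicate 3. Its relative Cyp2b10, the usual target of the receptor CAR, was at 6.96, 6.34 and 7.37 in controls and at 8.06, 7.03 and 8.14 in LG2KO. These groups overlap, and the difference of 0.85 ± 0.32 did not pass (adjusted p = 0.745).

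Of 21 measured targets and members of the CAR, PXR and AHR pathways Cyp2b9 was the 1 that rose and Cyp1a2 the 1 that fell, with a median of 0.04. Cyp1a2, a caffeine-metabolising P450, was at 11.85, 12.26 and 11.96 in controls and at 11.08, 11.26 and 11.30 in LG2KO. The groups did not overlap and it fell by 0.81 ± 0.11 (adjusted p = 0.00515). The carboxylesterase genes Ces2e and Ces2g, which lie on chromosome 8 with 1 tested gene between them, rose by 0.71 ± 0.12 and 1.02 ± 0.15.

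Male-biased liver genes leaned the other way. Hsd3b5, a steroid dehydrogenase of male mouse liver, was at 8.53, 9.62 and 9.20 in controls and at 6.99, 7.19 and 6.08 in LG2KO, with no overlap. It fell by 2.36 ± 0.34 (5.14-fold, adjusted p = 0.00968), and by 2.02 without LG2KO fasted replicate 3 (adjusted p = 0.0249), but it missed without control fasted replicate 2 or 3. The complement component C6 was at 10.54, 10.86 and 10.63 in controls and at 9.57, 9.60 and 9.52 in LG2KO and fell by 1.12 ± 0.17 (adjusted p = 0.0123). C6 missed the threshold without 5 of the 6 fasted arrays taken 1 at a time, LG2KO fasted replicate 3 among them (-1.10, adjusted p = 0.053). Cyp4a12a, a fatty acid hydroxylase of male liver, was at 12.50, 12.57 and 12.32 against 11.20, 11.58 and 11.23, a difference of -1.13 ± 0.24 that did not pass (adjusted p = 0.103).

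Hsd3b5 and C6 were the 2 of 11 male-biased genes that passed, beside 0.396% of all genes. All 11 differences were negative, beside 9351 of 18194 over all genes. Their median was -0.72, or -0.46 without LG2KO fasted replicate 3, when 1 passed. Without control fasted replicate 3 none passed. Among 10 female-biased genes Cyp2b9 was the 1 that rose, with a median of 0.28. The mean level of 4 sex chromosome transcripts lay between 4.2 and 4.58 on all 6 fasted arrays, and none of them passed. All 4 were below the median level of genes in fasted controls, and their mean does not tell the sex of the animals. None of 11 genes of the growth hormone axis passed.

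**Figure D4:**
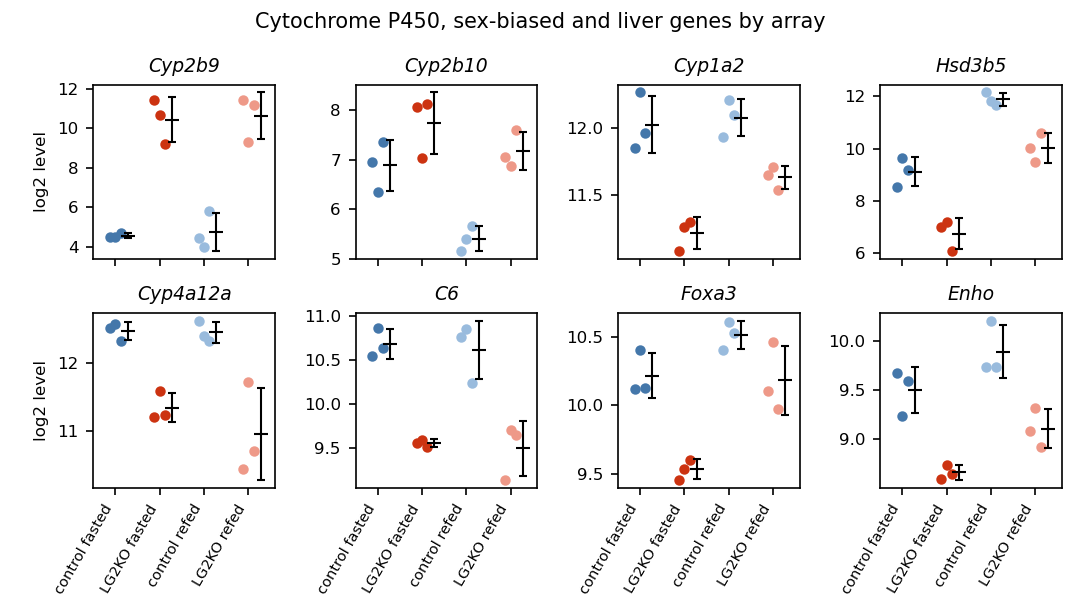
Log2 expression level of cytochrome P450, sex-biased and other liver genes in the 4 groups of 3 arrays, each panel with its own axis. Points are arrays and the bar with its error is the mean ± SD. Cyp2b9 is low on every control array and high on every LG2KO array, with LG2KO fasted replicate 3 the lowest of the fasted LG2KO arrays.

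Falls were fewer and mostly small. Isovaleryl-CoA dehydrogenase, Ivd, a step of leucine breakdown, was at 11.32, 11.41 and 11.44 in controls and at 10.82, 10.85 and 10.85 in LG2KO and fell by 0.55 ± 0.07 (adjusted p = 0.00342). The groups were tight and apart, and the call held without each single fasted array. Cystathionine beta-synthase, Cbs, which turns homocysteine into cystathionine, fell by 0.32 ± 0.06 (adjusted p = 0.0391), and Coq8b, needed to make ubiquinone, fell by 0.61 ± 0.11 (adjusted p = 0.0268). Both missed when single arrays were left out. The liver forkhead factor Foxa3 fell by 0.68 ± 0.13 (adjusted p = 0.0379), and Enho, which encodes the secreted peptide adropin, fell by 0.84 ± 0.15 (adjusted p = 0.0382). Without LG2KO fasted replicate 3 their adjusted p was 0.0973 and 0.127. Foxa3 missed when any 1 of the 6 fasted arrays was left out, and Enho missed without 5 of them.

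Foxa3 was the 1 of 13 liver transcription factors that passed and Enho the 1 of 15 secreted factors. Other falls were those of Klhdc3, a ubiquitin ligase adaptor (-0.60 ± 0.08), Dcaf11, likewise an adaptor (-0.40 ± 0.06), Cib3, a calcium-binding protein (-1.23 ± 0.19), and the secreted phospholipase Pla2g12a (-0.64 ± 0.11). Fam89a, Sel1l3 and Trp53inp2, the last a factor of autophagosome formation, were at -0.71 ± 0.12, -0.68 ± 0.12 and -0.55 ± 0.10, and all 3 passed.

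Rises outside metabolism covered several kinds of gene. Lepr, the receptor of the adipose hormone leptin, was at 6.58, 6.24 and 6.36 in controls and at 7.83, 7.31 and 7.20 in LG2KO (1.06 ± 0.18, adjusted p = 0.024), and the adiponectin receptor Adipor2 rose by 0.45 ± 0.09 (adjusted p = 0.0495). Rrm2, the small subunit of ribonucleotide reductase, was at 7.01, 6.17 and 6.16 in controls and at 8.36, 8.63 and 7.82 in LG2KO (1.82 ± 0.30, adjusted p = 0.0187). It was the 1 of 26 cell cycle genes that passed, and it missed without control fasted replicate 2 or 3 or LG2KO fasted replicate 1 or 2. Bhlhe40, a clock-linked repressor, rose by 0.70 ± 0.13 (adjusted p = 0.0358) as the 1 of 18 clock genes, and missed without any 1 of the fasted arrays.

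Some of the largest rises belonged to genes whose role in liver is not well known. Mmd2, of the progestin and adipoQ receptor family, was at 7.63, 7.0 and 8.12 in controls and at 10.16, 9.95 and 9.84 in LG2KO (2.40 ± 0.39, adjusted p = 0.0184). Dct, an enzyme of melanin synthesis, rose by 1.71 ± 0.31, the prostaglandin D synthase Ptgds by 1.66 ± 0.24, the keratin gene Krt23 by 1.37 ± 0.22 and the nuclease gene Dnase1 by 1.28 ± 0.21. Tmie, a membrane protein gene known from hair cells of the ear, was at 7.24, 7.30 and 7.05 in controls and at 8.55, 8.88 and 8.46 in LG2KO (1.44 ± 0.15, 2.70-fold, adjusted p = 0.000976), and the transporter Slc22a7 rose by 1.09 ± 0.21.

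Neighbouring genes rose together at 2 more places. Ttc23 was at 8.42, 8.27 and 8.66 in controls and at 9.34, 9.55 and 9.36 in LG2KO (0.97 ± 0.12, adjusted p = 0.00287). Lrrc28, the next tested gene on chromosome 7, was at 8.08, 7.82 and 8.05 against 8.93, 9.27 and 8.90 (1.05 ± 0.13, adjusted p = 0.00258). After refeeding the same genes were at -0.09 and 0.11, and neither passed. On chromosome 11 Acly and its neighbour Ttc25 rose by 1.14 ± 0.13 and 0.70 ± 0.13.

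Of the 72 genes 21 also passed in refed livers, all in the same direction, 17 higher and 4 lower. These are 29.2% of the fasted genes and 30.4% of the 69 that passed after refeeding (0.379% of all genes). The fasted and refed comparisons share no array, but both use the same estimate of each gene's spread from 1 fit. Their tests are therefore not independent, and a gene of small spread passes more easily in both. Among them were Slc2a2, Khk, Srebf1, Pcx, Fbp1, Cyp2b9, Hsd3b5, C6, Cib3, Mmd2, Dct, Ptgds and Ces2e. Hsd3b5 differed by -1.85 after refeeding and Cyp2b9 by 5.92. Pklr, Tkfc, G6pc and the 7 fatty acid synthesis genes above passed in the fasted state and not in the refed one, but among these genes Pklr was the 1 for which the change between states passed the test.

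**Figure D5:**
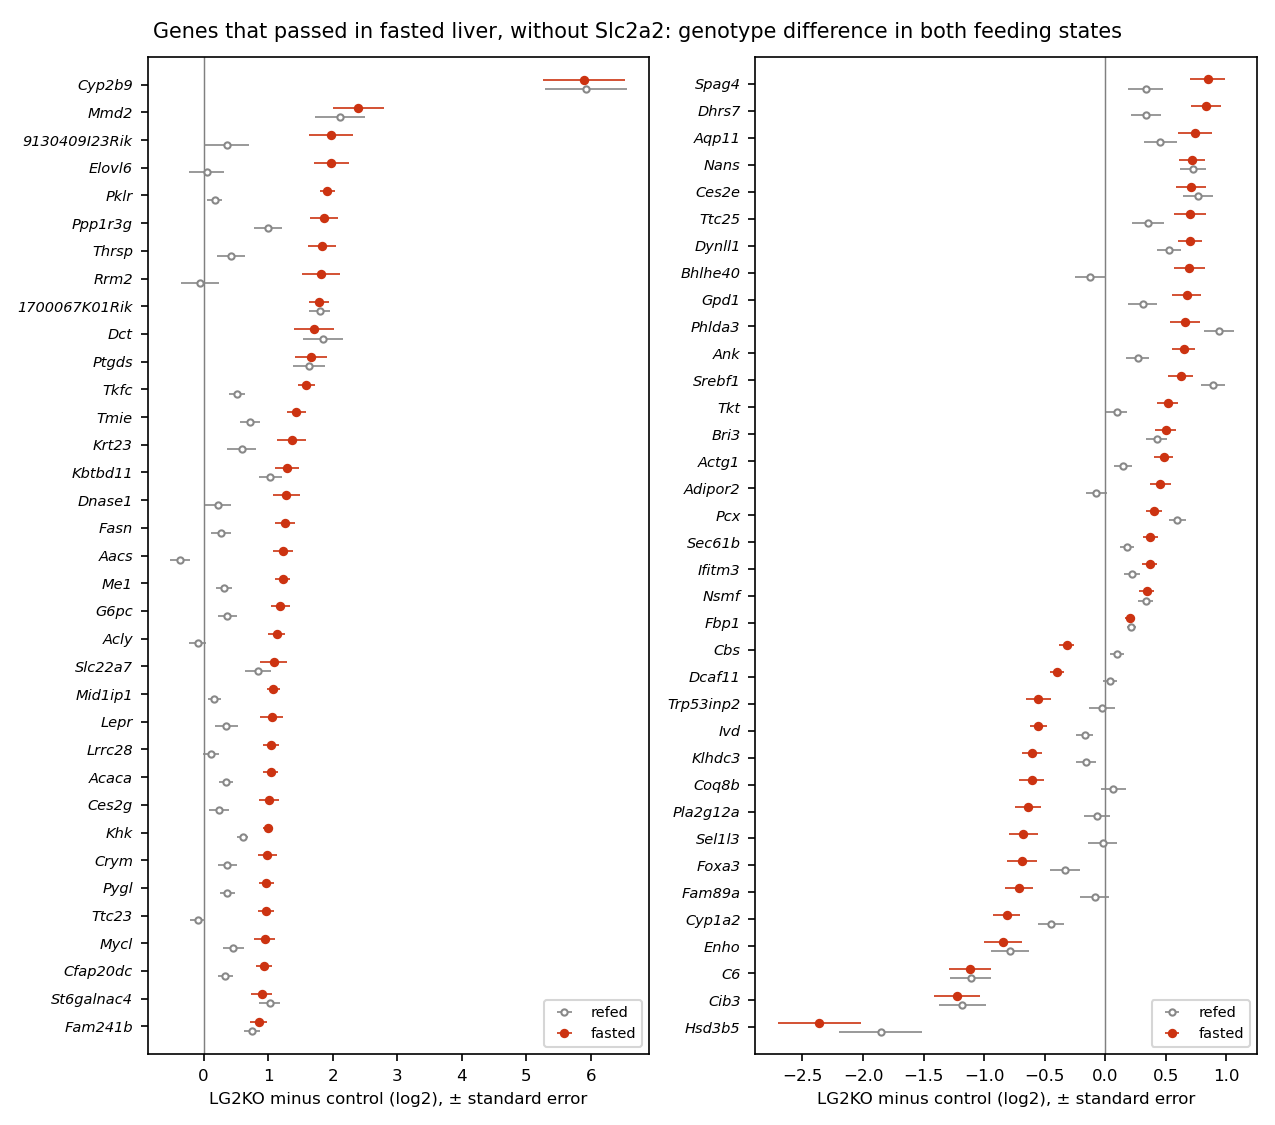
Log2 difference of LG2KO minus control for the genes that passed in fasted liver, without Slc2a2, in fasted livers (filled red) and refed livers (open grey), with standard errors. Cyp2b9 has the largest rise in both states, and the filled and open points of Pklr lie far apart.

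The calls differed in how far they rested on single arrays. Of the 72 genes 28 rose more than 2-fold and 4 fell more than 2-fold, and the smallest change was 1.15-fold. In 25 of them the call held without each single fasted array, and in 17 it held in all 17 settings tried: Slc2a2, Pklr, Khk, Tkfc, Acly, Acaca, Elovl6, Thrsp, Mid1ip1, Me1, Aacs, Pygl, Cyp2b9, Cyp1a2, Tmie, Ttc23 and a gene known by a clone name. Without LG2KO fasted replicate 3, 42 genes passed (0.231%). The 8 further genes that held without each single array were G6pc, Fasn, Ppp1r3g, Ivd, Klhdc3, Lrrc28, Cfap20dc and Kbtbd11, and the other 47 missed without at least 1. In 10.8% of all genes no LG2KO fasted array fell within the range of the controls or the reverse. Of 9211 probe sets with no gene listed, 8 passed (0.0869%) in a fit over all 45101 probe sets.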

How the data were processed

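Liver RNA was hybridised to 12 Affymetrix mouse arrays, each a pool of 3 animals. The authors deposited log2 expression values made with RMA, per the submitters' processing notes; the sources used here name no software version or genome build. Of 45101 probe sets 34958 had 1 symbol in the platform annotation, 932 had several and 9211 were not listed. Each symbol was read by its probe set with the highest mean over 12 arrays, which gave 18194 genes (9012 had several probe sets); no symbol changed against RefSeq GRCm38.p6. Some genes are not reported here.

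Groups came from titles and diet labels. Differences were tested two-sided with limma 3.58.1 in R 4.3.3 (lmFit, eBayes with an intensity trend) over all 12 arrays, 1 mean a group, 8 residual degrees of freedom, Benjamini-Hochberg adjustment over all genes and a threshold of 0.05; the interaction came from the same fit. The p-values measure the spread between pools, and precision is limited by the number of arrays. The genes that could be named were Slc2a2 and its 10 nearest neighbours, every gene that passed (2 with clone-like symbols were counted and not described), up to 6 members of each list with a passing member and a fixed set of metabolic genes. The 44 lists hold 617 measured entries and are described by counts and medians without a test. The comparison, lists and alternatives were chosen with earlier results of these data known. Alternatives were each fasted array left out, both pairs of arrays in doubt left out, only the fasted arrays, no trend, robust estimation, array weights, the genes in the upper 50% by mean, the mean of all probe sets, arrays centred on their median and a replicate block. The test was checked on simulated data. Figures were drawn with matplotlib 3.10.9.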

Additional observations from a re-analysis of the deposited data

Results flagged for a closer look

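The genotype difference of Pklr was larger in fasted than in refed livers by 1.75 ± 0.16 on the log2 scale, which passed the interaction test (adjusted p = 0.0024). It was 1.92 ± 0.12 in fasted and 0.17 ± 0.12 in refed livers.

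Probe sets that the platform annotation does not tie to a gene also differed between the fasted groups. In a fit over all 45101 probe sets 89 passed, and 8 of these were among the 9211 unlisted ones (0.0869%), 7 higher and 1 lower in LG2KO. The 1 lower probe set was at -1.16. None of the 932 probe sets with several genes passed.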

How the results depend on the processing

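None of the 72 genes that passed changed direction under any alternative. Leaving out 1 fasted array gave 30 to 48 genes that passed (30 without LG2KO replicate 1 or 2, 42 without 3; 48, 32 and 36 without control replicates 1, 2 and 3). Without LG2KO fasted replicate 3 and control fasted replicate 3 together 29 passed, 25 of them among the 72, and 44 passed when only the 6 fasted arrays were fitted. Array weights gave 203, with 130 higher and 73 lower, a lower share of rises than the 56 and 16 of the reported fit; without LG2KO fasted 3 and control fasted 3 the split was 27 and 2. The cause was not tested. Other counts ran from 50 without the intensity trend to 93 without LG2KO fasted replicate 3 and control refed replicate 1. The interaction passed for 1 gene in most settings, for 2 with robust estimation and for 20 with array weights. Replicate numbers of control and LG2KO fasted arrays did not deviate together (correlations of -0.41, -0.13 and -0.46). With the replicate block 67 genes passed, 62 of them among the 72, and 6 passed the interaction. At an unadjusted p below 0.05 there were 946 genes. Among genes that did not pass, the small differences of Angptl4, Pck1 and Cpt1a changed sign: Angptl4 ran from -0.058 to 0.14 and Pck1 from -0.098 to 0.012 when 1 array was left out, and with the mean of all probe sets Angptl4 was at -0.029 and Cpt1a at 0.0064.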

Other observations

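Further genes that passed in fasted LG2KO livers had roles outside the lists. Nans, which makes sialic acid, and the sialyltransferase gene St6galnac4 rose by 0.72 ± 0.11 and 0.90 ± 0.16. Gamma-actin, Actg1, rose by 0.49 ± 0.08 and the dynein light chain Dynll1 by 0.70 ± 0.10. The translocon subunit Sec61b rose by 0.37 ± 0.06, the antiviral membrane protein Ifitm3 by 0.37 ± 0.06, the phosphate exporter gene Ank by 0.65 ± 0.10 and the water channel Aqp11 by 0.74 ± 0.14. Crym, which binds thyroid hormone, rose by 0.99 ± 0.14, the dehydrogenase gene Dhrs7 by 0.84 ± 0.12 and Mycl, of the Myc family, by 0.95 ± 0.16. Phlda3, a known target of p53, rose by 0.66 ± 0.12. Spag4, Fam241b, Bri3 and Nsmf rose by 0.85 ± 0.15, 0.85 ± 0.13, 0.50 ± 0.09 and 0.34 ± 0.06. Other probe sets of Dhrs7, Gpd1, Nsmf, Klhdc3 and Sel1l3 included at least 1 of the opposite sign, but none of those passed.

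Marker lists of other liver cells had no member that passed. The 13 macrophage markers had a median of -0.14, with 12 of 13 negative, beside 9351 of 18194 over all genes. Their mean level was 8.80 to 9.27 on the control fasted arrays and 8.64 to 8.92 on the LG2KO ones. The 14 endothelial markers had a median of -0.09, and their mean was 7.57 on LG2KO fasted replicate 3 and 7.84 to 7.86 on the other 5 fasted arrays. The 13 stellate cell and fibroblast markers had a median of 0.10, with means of 6.43 to 6.91 in controls and 6.42 to 7.07 in LG2KO. The part of these cells in the results above was not tested.

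None of 25 acute phase genes, 20 stress response genes or 11 interferon genes passed, and none of 11 bile acid synthesis or 11 bile acid transport genes.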
